A study of Homo sapiens with 4 samples.

Results

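Chromatin remodelling complex genes were followed as the 45 gene symbols, of 33640 in the count tables, that carry the names of the CHD family, the SMARC subunits, the ARID genes, the DPF genes, BRD7, BRD9, SS18, SS18L1, PBRM1 and INO80 with its lettered subunits. The rule used gene names and no measured value, but it was chosen with earlier results of these data known. All 45 had at least 1 count in each library, and 37 of them had a mean of at least 10 RPM (counts scaled to the library total) over the 4 libraries, as did 11564 genes in all. The name rule also takes in 7 genes of the ARID3, ARID4 and ARID5 groups, whose products share the ARID DNA-binding domain but are not known as subunits of the remodelling complexes described here.

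The counts came from H9 cells, a line of human primed pluripotent stem cells, kept in Essential8 medium on Geltrex. The experiment asked how the order of transcriptome and chromatin profiling in the same nuclei bears on each. In the Post libraries poly(A) RNA was reverse transcribed (RT) after Tn5 tagmentation of the DNA, and in the Pre libraries before it. In each order, 1 library had RNA and DNA profiled together, the DNA at H3K27me3 and H3K27ac, and 1 library was RNA only. All 4 libraries share the cell line, with no edit or treatment named in the labels, the extraction of nuclei and a light fixation with formaldehyde. Whether the RNA only nuclei were tagmented as fully as the others is not given in the sources used here. With a single library for each condition there is no replicate check of any difference, and all intervals are 95% intervals for counting error alone. In bulk samples, fewer cells that use a gene and less RNA per cell cannot be told apart.

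Total counts lay between 6368721 and 10089552 per library. The Post, RNA only library had the lowest total and stood apart, in that 34.8% of its counts fell on 6 genes whose symbols are clone names (FP236383 and FP671120, below the clone genes), against 10.7 to 15.8% in the other 3 libraries. All 10 markers of pluripotent cells were at 10 RPM or more in every library, with summed levels of 2463 to 3428 RPM. The markers of endoderm, mesoderm and trophoblast were each below 10 RPM in every library, and their summed levels were 2.03 to 6.03 RPM. Of the 5 neural markers only TUBB3, and of the 5 fibroblast markers COL1A2 and THY1, reached 10 RPM in all libraries. The summed fibroblast markers were at 180 and 151 RPM in Post with and without DNA profiling, against 220 and 212 RPM in Pre, and their part in the results was not tested. A single gene of that list had a mean of 155 RPM, and 2 of the 5 were below 10 RPM in every library. The sum thus rests largely on 1 gene and does not measure a content of fibroblasts.

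Chromatin remodelers are enzymes that use ATP to slide, eject or exchange nucleosomes, and each is built around a catalytic subunit of the SNF2 type. SWI/SNF complexes, called BAF and PBAF in mammals, open chromatin at enhancers and promoters, ISWI complexes space nucleosomes evenly, CHD proteins either space nucleosomes or act within the NuRD corepressor, and INO80 slides and edits nucleosomes, among them those with the histone variant H2A.Z. In mouse embryonic stem cells a BAF complex built on SMARCA4 with SMARCC1 is known to be needed for self-renewal.

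Because most members belong to families of close relatives, the longest stretch shared letter for letter was found between the canonical transcripts of 22 pairs of paralogues in GENCODE release 44. It was 17 to 41 bases long, with a median of 24.5. The stretches of 4 pairs are shown because the balance between these relatives is reported below. Capitals mark the shared bases within coding sequence, the flanks are in lower case, and each line is the transcribed strand 5′ to 3′ with its GRCh38 position.
SMARCA4 (chr19:10991249-10991304, + strand): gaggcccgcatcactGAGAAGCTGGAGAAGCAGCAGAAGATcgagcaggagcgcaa
SMARCA2 (chr9:2056771-2056826, + strand): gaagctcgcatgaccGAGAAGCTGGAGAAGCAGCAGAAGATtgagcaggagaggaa
CHD4 (chr12:6591920-6591986, - strand): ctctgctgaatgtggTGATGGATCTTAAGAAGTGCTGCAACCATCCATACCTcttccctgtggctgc
CHD3 (chr17:7900923-7900989, + strand): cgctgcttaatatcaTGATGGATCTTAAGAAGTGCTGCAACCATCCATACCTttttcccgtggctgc
CHD1 (chr5:98893428-98893483, - strand): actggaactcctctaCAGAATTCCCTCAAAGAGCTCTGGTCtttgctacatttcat
CHD2 (chr15:92956582-92956637, + strand): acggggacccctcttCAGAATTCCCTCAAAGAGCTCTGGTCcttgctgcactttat
SMARCA5 (chr4:143521450-143521511, + strand): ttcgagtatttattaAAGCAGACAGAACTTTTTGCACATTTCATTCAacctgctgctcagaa
SMARCA1 (chrX:129516415-129516476, - strand): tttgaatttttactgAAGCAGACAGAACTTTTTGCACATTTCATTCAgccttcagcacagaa
Capitals covered 26 bases in SMARCA4 and SMARCA2, 37 in CHD4 and CHD3, 26 in CHD1 and CHD2 and 32 in SMARCA5 and SMARCA1. In the flanks beside them the bases already differed at several places. The transcripts of SS18 and SS18L1 shared no more than 22 bases. Introns were not compared. GENCODE also holds pseudogenes named after BRD7 (7), SMARCE1 (7), BRD9 (2) and ARID3B (1), and none of these is a row of the count tables.

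All 45 genes together took 0.568% and 0.413% of all counts in Post with and without DNA profiling, against 0.638% and 0.617% in Pre. Without the 6 clone genes the shares were 0.675% and 0.634% in Post, against 0.715% and 0.704% in Pre. By total counts 40 of the 45 genes were lowest in Post, RNA only, and without the clone genes 22 of 45. The Post, RNA only library was thus low for nearly every member by total counts, and for fewer when the clone genes were left out of the total. The split of the members' counts between groups moved little. The CHD family took 36.4% and 35.6% of them in Post with and without DNA profiling, and 35.5% and 35.1% in Pre. The variable SWI/SNF subunits took 21.3% and 20.5% in Post and 20.2% and 20.9% in Pre. SWI/SNF core subunits held 13.9% in both Post libraries and 14.8% in both Pre libraries.

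**Figure D1:**
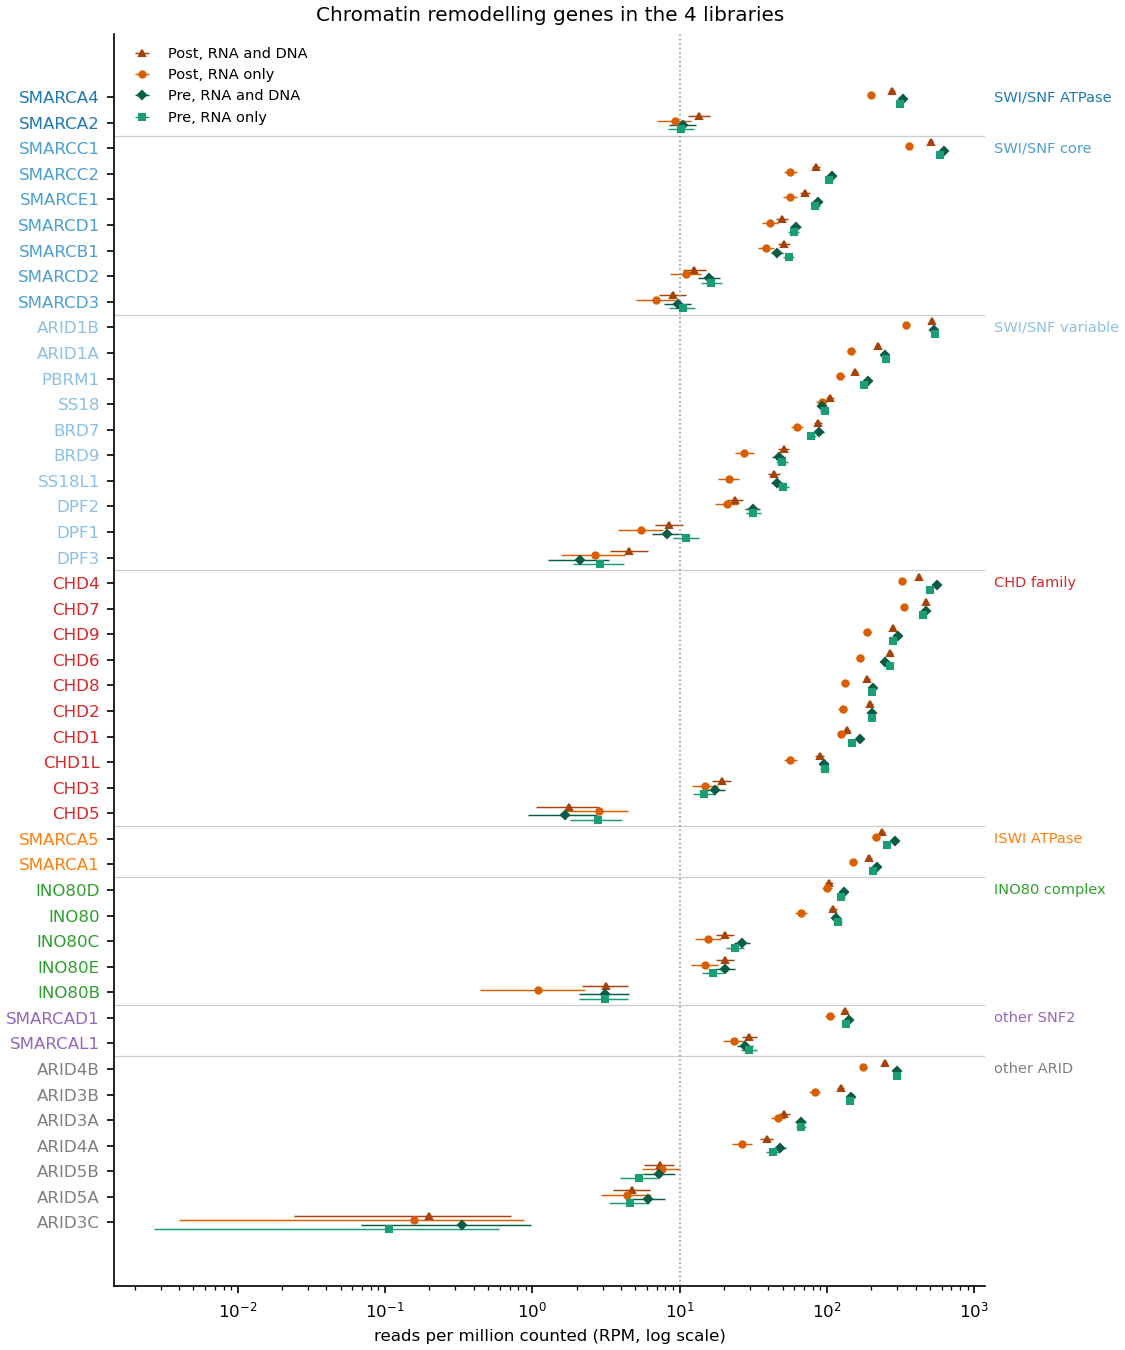
Level of each of the 45 genes in RPM (log axis) in the 4 libraries, grouped by role. Bars are 95% Poisson intervals of the count, and the dotted line marks 10 RPM. Members range from ARID3C, below 1 RPM in all libraries, to SMARCC1, CHD4, ARID1B and CHD7 above 300 RPM in all libraries.

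SMARCA4 (BRG1), an ATPase of SWI/SNF, was far above its alternative SMARCA2 (BRM). SMARCA4 reached 278 RPM (RNA and DNA) and 199 RPM (RNA only) in Post, against 328 RPM (RNA and DNA) and 315 RPM (RNA only) in Pre. SMARCA2 had 13.6 and 9.26 RPM in the Post libraries with and without DNA profiling, and 10.5 and 10.2 RPM in the matching Pre libraries. Per kilobase of merged exons the means of the 4 libraries were 17.97 RPM for SMARCA4 and 0.571 RPM for SMARCA2. SMARCA2 spans a larger gene, 213 kb at chr9:1980290-2193624, than SMARCA4, 118 kb at chr19:10960932-11079426.

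Among core subunits SMARCC1 (BAF155), a scaffold on which SWI/SNF complexes assemble, had the highest level per kilobase of exons of all 45 members, with a mean of 68.2 RPM per kb, and rank 102 among all genes by mean RPM. SMARCC1 reached 510.2 RPM (RNA and DNA) and 362 RPM (RNA only) in Post, against 619 RPM (RNA and DNA) and 587 RPM (RNA only) in Pre. Its paralogue SMARCC2 (BAF170) had 84.2 and 56.4 RPM in the Post libraries with and without DNA profiling, and 108 and 104 RPM in the matching Pre libraries, a mean of 9.598 RPM per kb. The Pre libraries were above the Post libraries for both genes, and Post, RNA only was lowest.

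The other 5 core subunits were also below SMARCC1, with means of 1.83 RPM per kb of exons (SMARCD3) to 10.8 RPM per kb (SMARCD1). SMARCE1 (BAF57), a DNA-bending subunit, had 71.2 RPM in Post, RNA and DNA, 56.2 RPM in Post, RNA only, 86.3 RPM in Pre, RNA and DNA and 83.3 RPM in Pre, RNA only. SMARCB1 (SNF5, BAF47), which contacts the nucleosome face, had 51.1 RPM (RNA and DNA) and 38.5 RPM (RNA only) in Post, against 45.8 RPM (RNA and DNA) and 55.02 RPM (RNA only) in Pre. For SMARCB1 the order of the libraries differed from SMARCE1, since Pre, RNA and DNA lay below Post, RNA and DNA. SMARCD1 (BAF60A), which links the complex to transcription factors, had 49.7 and 41.3 RPM in the Post libraries with and without DNA profiling, and 61.5 and 59.5 RPM in the matching Pre libraries. SMARCD2 (BAF60B) was at 12.6 RPM (RNA and DNA) and 10.99 RPM (RNA only) in Post, against 15.8 RPM (RNA and DNA) and 16.4 RPM (RNA only) in Pre. SMARCD3 (BAF60C), known from heart and muscle, stayed below the mean of 10 RPM, with 9.02 RPM in Post, RNA and DNA, 6.91 RPM in Post, RNA only, 9.71 RPM in Pre, RNA and DNA and 10.4 RPM in Pre, RNA only. The intervals of all 4 libraries overlapped for SMARCD3.

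The variable subunits decide which SWI/SNF complex is formed. Per kilobase of exons PBRM1 and SS18 led these 10 genes, with means of 16.7 and 15.7 RPM per kb. ARID1A (BAF250A), found only in canonical BAF, reached 221 RPM (RNA and DNA) and 146 RPM (RNA only) in Post, against 248 RPM (RNA and DNA) and 252 RPM (RNA only) in Pre. ARID1B (BAF250B), its mutually exclusive alternative, reached 514 and 345.0 RPM in the Post libraries with and without DNA profiling, and 533 and 544 RPM in the matching Pre libraries. Per kilobase of exons the order of the pair turned round, with means of 13.6 RPM per kb for ARID1A and 10.5 for ARID1B. ARID1B spans 435 kb and its merged exons 45.9 kb, against 88.9 and 15.9 kb for ARID1A. ARID1B is thus the longer gene and ARID1A the denser one in counts. PBRM1 (BAF180), which with BRD7 marks PBAF, had 155 RPM (RNA and DNA) and 123 RPM (RNA only) in Post, against 191 RPM (RNA and DNA) and 177 RPM (RNA only) in Pre. BRD7, a bromodomain protein, had 86.6 and 62.6 RPM in the Post libraries with and without DNA profiling, and 88.7 and 78.5 RPM in the matching Pre libraries. BRD9, the bromodomain subunit of non-canonical BAF, was at 50.8 RPM in Post, RNA and DNA, 27.5 RPM in Post, RNA only, 46.98 RPM in Pre, RNA and DNA and 49.4 RPM in Pre, RNA only. BRD9 was low in Post, RNA only and its other 3 libraries overlapped in their intervals. Of the span of BRD9, 20.4% overlaps the gene ZDHHC11 on the same strand, and reads there may have been counted for either.

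SS18, a subunit of canonical and non-canonical BAF that is fused to SSX genes in synovial sarcoma, was nearly level, at 105 RPM (RNA and DNA) and 91.9 RPM (RNA only) in Post, against 92.1 RPM (RNA and DNA) and 96.3 RPM (RNA only) in Pre. SS18L1 (CREST), its paralogue known from neurons, was not. SS18L1 had 43.9 and 21.5 RPM in the Post libraries with and without DNA profiling, and 46.1 and 50.6 RPM in the matching Pre libraries, from 443 and 137 counts in Post and 413 and 475 in Pre. Its value in Post, RNA only lay below the other 3, whose intervals overlapped. DPF2 (BAF45D), a reader of acetylated histones, had 23.9 RPM (RNA and DNA) and 20.9 RPM (RNA only) in Post, against 31.4 RPM (RNA and DNA) and 31.6 RPM (RNA only) in Pre. Its relatives DPF1 and DPF3, known from neurons and muscle, were low. DPF1 had 8.52 and 5.496 RPM in the Post libraries with and without DNA profiling, and 8.26 and 11.1 RPM in the matching Pre libraries. DPF3 had 4.56 RPM in Post, RNA and DNA, 2.67 RPM in Post, RNA only, 2.12 RPM in Pre, RNA and DNA and 2.88 RPM in Pre, RNA only.

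In the CHD family CHD4 (Mi-2 beta), the ATPase of NuRD, and CHD7, a regulator of enhancers in stem and neural crest cells, had the highest levels of the 10 CHD genes, in RPM and per kilobase of exons. CHD4 reached 421 RPM (RNA and DNA) and 325 RPM (RNA only) in Post, against 557 RPM (RNA and DNA) and 503 RPM (RNA only) in Pre. CHD7 reached 470.1 and 333 RPM in the Post libraries with and without DNA profiling, and 472 and 449 RPM in the matching Pre libraries. Per kilobase of exons CHD4 averaged 35.5 RPM and CHD7 22.8 RPM. CHD3, the alternative NuRD ATPase, had 19.2 RPM (RNA and DNA) and 14.9 RPM (RNA only) in Post, against 17.4 RPM (RNA and DNA) and 14.7 RPM (RNA only) in Pre, so all of its 4 intervals overlapped. CHD5, a NuRD ATPase of neurons, was at 1.78 RPM in Post, RNA and DNA, 2.83 RPM in Post, RNA only, 1.67 RPM in Pre, RNA and DNA and 2.77 RPM in Pre, RNA only. These are 18 and 18 counts in the Post libraries and 15 and 26 counts in the Pre libraries.

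CHD1, which binds H3K4me3 at active promoters and is needed for the open chromatin of pluripotent mouse cells, had 137 RPM (RNA and DNA) and 125 RPM (RNA only) in Post, against 168 RPM (RNA and DNA) and 148 RPM (RNA only) in Pre. CHD2 had 195 and 128 RPM in the Post libraries with and without DNA profiling, and 202 and 201 RPM in the matching Pre libraries. CHD2 was level in 3 libraries and low in Post, RNA only, whereas CHD1 was also lower in Post, RNA and DNA than in Pre, RNA and DNA. CHD6 had 268 RPM in Post, RNA and DNA, 168 RPM in Post, RNA only, 247 RPM in Pre, RNA and DNA and 267 RPM in Pre, RNA only. CHD8, a repressor of beta-catenin targets, had 186 RPM (RNA and DNA) and 133 RPM (RNA only) in Post, against 206 RPM (RNA and DNA) and 202 RPM (RNA only) in Pre. CHD9 had 281 and 187 RPM in the Post libraries with and without DNA profiling, and 303 and 282 RPM in the matching Pre libraries. CHD8 and CHD9 were lowest in Post, RNA only and highest in Pre, RNA and DNA, while CHD6 was highest in Post, RNA and DNA. CHD1L (ALC1), a remodeler recruited by poly(ADP-ribose) at DNA damage, had 89.1 RPM (RNA and DNA) and 56.4 RPM (RNA only) in Post, against 94.7 RPM (RNA and DNA) and 96.5 RPM (RNA only) in Pre. LINC00624, transcribed from the opposite strand, overlaps 69.4% of CHD1L, and whether strand was used in counting is not given in the sources used here.

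Both ISWI ATPases were well measured. SMARCA5 (SNF2H) reached 237 RPM (RNA and DNA) and 214 RPM (RNA only) in Post, against 291 RPM (RNA and DNA) and 257 RPM (RNA only) in Pre. SMARCA1 (SNF2L) reached 192 and 150.3 RPM in the Post libraries with and without DNA profiling, and 219 and 206 RPM in the matching Pre libraries. Per kilobase of exons SMARCA1 was second to SMARCC1 among the 45 genes, with a mean of 43.96 RPM per kb, and SMARCA5 had 30.6. The 5 INO80 genes were lower than both ISWI ATPases, with means of 1.82 RPM per kb of exons (INO80B) to 7.99 RPM per kb (INO80D). Its ATPase INO80 had 110.1 RPM (RNA and DNA) and 66.6 RPM (RNA only) in Post, against 115 RPM (RNA and DNA) and 119 RPM (RNA only) in Pre. The subunit INO80D had 103 and 100.3 RPM in the Post libraries with and without DNA profiling, and 130.1 and 125 RPM in the matching Pre libraries. INO80 was low in Post, RNA only, and its other 3 libraries overlapped in their intervals. In RPM, INO80D was higher in both Pre libraries than in both Post libraries. Its log2 ratio of Post over Pre relative to the median of all genes, described below, was -0.24 (-0.36 to -0.12) with RNA and DNA. With RNA only that ratio was 0.12 (-0.02 to 0.26), so by this measure INO80D was not lower in Post there. INO80C had 20.4 RPM in Post, RNA and DNA, 15.5 RPM in Post, RNA only, 26.4 RPM in Pre, RNA and DNA and 23.8 RPM in Pre, RNA only. INO80E was at 20.2 RPM (RNA and DNA) and 14.8 RPM (RNA only) in Post, against 20.4 RPM (RNA and DNA) and 16.7 RPM (RNA only) in Pre, with overlapping intervals. INO80B was at 3.17 and 1.099 RPM in the Post libraries with and without DNA profiling, and 3.12 and 3.09 RPM in the matching Pre libraries, which is 7 counts in Post, RNA only and 28 to 32 in the others. SMARCAD1, which keeps heterochromatin through replication, had 133 RPM (RNA and DNA) and 105 RPM (RNA only) in Post, against 141 RPM (RNA and DNA) and 134 RPM (RNA only) in Pre. SMARCAL1, an annealing helicase of stalled replication forks, had 29.7 RPM in Post, RNA and DNA, 23.2 RPM in Post, RNA only, 27.7 RPM in Pre, RNA and DNA and 29.6 RPM in Pre, RNA only. Both are SNF2 enzymes that act outside the complexes above, and the intervals of SMARCAL1 overlapped in all 4 libraries.

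The ARID genes outside the complexes had means of 0.0854 RPM per kb of exons (ARID3C) to 22.99 RPM per kb (ARID4B). ARID4B, a partner of the SIN3 corepressor, reached 247 RPM (RNA and DNA) and 176 RPM (RNA only) in Post, against 297 RPM (RNA and DNA) and 297 RPM (RNA only) in Pre. Its relative ARID4A had 38.9 and 26.5 RPM in the Post libraries with and without DNA profiling, and 47.9 and 42.9 RPM in the matching Pre libraries. ARID4B was the higher of the pair in every library. ARID3B had 124 RPM in Post, RNA and DNA, 82.9 RPM in Post, RNA only, 145 RPM in Pre, RNA and DNA and 143 RPM in Pre, RNA only. ARID3A had 51.4 RPM (RNA and DNA) and 46.6 RPM (RNA only) in Post, against 66.2 RPM (RNA and DNA) and 66.96 RPM (RNA only) in Pre. In RPM, ARID3A and ARID3B were higher in both Pre libraries than in both Post libraries. Relative to the median of all genes, ARID3A was at -0.07 (-0.29 to 0.12) for Post over Pre with RNA only, an interval that includes the median. ARID5A and ARID5B averaged 4.97 and 6.86 RPM. ARID3C, with 2 and 1 counts in Post and 3 and 1 in Pre, was the only member below 1 RPM on average.

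Shares within a set of paralogues do not depend on the library total, so the balance between alternatives could be compared across libraries without a scaling. The set was led by the same gene by counts, per kilobase of exons and per kilobase of gene span in 5 of 11 sets. These were SMARCA4, SMARCD1, DPF2, BRD7 and CHD4. In the other 6 sets the leading gene depended on the length used. SMARCC1 took 87.2 to 88.6% of its pair per kilobase of exons but 43.9 to 47.1% per kilobase of gene span. SMARCA5 took 39.8 to 43.2% per kilobase of exons and 68.4 to 71.4% per kilobase of span, beside SMARCA1. CHD1 took 41.2 to 49.4% of its counts with CHD2, but 58.1 to 65.9% per kilobase of exons. ARID1A took 29.7 to 31.8% of counts and 54.9 to 57.3% per kilobase of exons. The share of reads from introns is not recorded in the tables, so neither length is the true denominator.

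**Figure D2:**
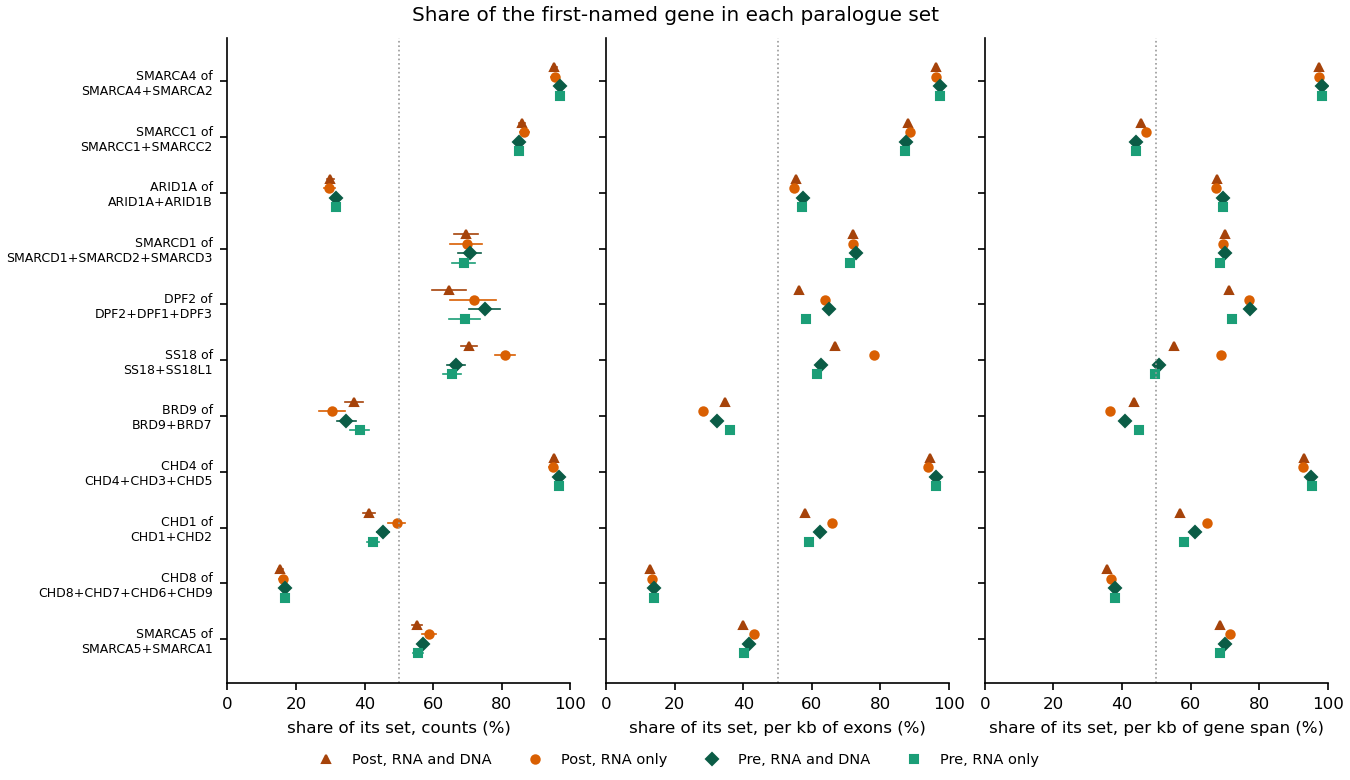
Share of the first-named gene in each of 11 paralogue sets, by counts, per kilobase of merged exons and per kilobase of gene span, in the 4 libraries. Bars in the left panel are 95% binomial intervals, and the dotted line marks equal shares in a pair. SMARCC1, ARID1A, CHD1 and SMARCA5 cross the dotted line between panels, while SMARCA4 and CHD4 stay above 90%.

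Some differences of these shares exceeded counting error in both pairs of Post over Pre. Of the counts of SMARCA4 and SMARCA2 together, SMARCA4 took 95.3% (RNA and DNA) and 95.5% (RNA only) in Post, against 96.9% (RNA and DNA) and 96.9% (RNA only) in Pre. The log2 odds ratio of Post over Pre was -0.61 (-0.998 to -0.23) with RNA and DNA and -0.52 (-0.999 to -0.04) with RNA only. Of the counts of CHD4, CHD3 and CHD5 together, CHD4 took 95.3% (RNA and DNA) and 94.8% (RNA only) in Post, against 96.7% (RNA and DNA) and 96.6% (RNA only) in Pre. Its log2 odds ratio was -0.54 (-0.84 to -0.25) with RNA and DNA and -0.65 (-1.004 to -0.30) with RNA only. In both sets the major ATPase thus had a lower share in Post than in Pre, and the minor paralogue a higher one. ARID1A also had a lower share of its pair in Post, with log2 odds ratios of -0.12 (-0.22 to -0.01) with RNA and DNA and -0.13 (-0.26 to -0.0019) with RNA only. SMARCA2 rested on as few as 59 counts and CHD3 on 95, both in Post, RNA only, and CHD5 on as few as 15, in Pre, RNA and DNA.

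Of the counts of SS18 and SS18L1 together, SS18 took 70.4% (RNA and DNA) and 81.02% (RNA only) in Post, against 66.6% (RNA and DNA) and 65.5% (RNA only) in Pre. This was the widest range among the first-named genes of the 11 sets, 15.5 percentage points, and it lay between Post, RNA only and the other libraries. Its log2 odds ratio of Post over Pre was 0.25 (0.02 to 0.49) with RNA and DNA and 1.17 (0.85 to 1.48) with RNA only. For CHD1 against CHD2 the ratio changed sign, -0.25 (-0.39 to -0.11) with RNA and DNA and 0.41 (0.24 to 0.58) with RNA only. For DPF2 it was -0.73 (-1.18 to -0.27) with RNA and DNA and 0.18 (-0.37 to 0.73) with RNA only. For BRD9 against BRD7 it was 0.15 (-0.08 to 0.38) with RNA and DNA and -0.52 (-0.83 to -0.21) with RNA only. SMARCA5 against SMARCA1 was at -0.11 (-0.23 to 0.01) with RNA and DNA and 0.19 (0.04 to 0.33) with RNA only. The sets of CHD1, DPF2, BRD9 and SMARCA5 therefore had no common direction over both pairs. CHD8 within its set was at -0.14 (-0.24 to -0.04) with RNA and DNA and -0.07 (-0.20 to 0.05) with RNA only, where the interval included 0. SMARCC1 and SMARCD1 had intervals that included 0 in all 4 comparisons, so no shift of their sets was detectable at this depth. For the 11 sets 44 such ratios were computed, with Woolf intervals that were not adjusted for their number, and comparisons that share a library are not independent.

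To compare levels between libraries, each log2 ratio was taken from the median log2 ratio of the 11564 genes tested. A gene was called when it differed at least 1.5-fold from that median with its counting interval clear of it. The uncentred median itself was -0.09 for Post over Pre with RNA and DNA and -0.44 with RNA only, so that without centring 17 of 37 members would be called lower in the RNA only pair, against 30.5% of all genes, and 0 of 37 in the RNA and DNA pair, against 3.47%. After centring, 1 of 37 members was called in the RNA only pair, SS18L1. It was lower in Post, where 2.01% of all genes were called lower. No member was called higher, against 5.26% of all genes. With RNA and DNA 0 of 37 members were called, against 1.1% of all genes called higher and 2.02% lower. No member was called in both pairs, where 0.571% of all genes were called higher and 0.0605% lower. At 0 or 1 of 37 these counts are too few to set apart from the background.

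Once the median shift was removed, SS18L1 in Post, RNA only was at 0.591 times its level in Pre, RNA only. The relative log2 ratio of Post over Pre was 0.03 (-0.17 to 0.22) with RNA and DNA and -0.76 (-1.08 to -0.52) with RNA only. The value with RNA only was at percentile 0.493 of all genes tested. Without the 6 clone genes in the totals SS18L1 was still the 1 member called. The RNA and DNA pair, which does not use the library that stands apart, gave no call. SS18, by contrast, had 0.28 (0.14 to 0.41) with RNA and DNA and 0.37 (0.22 to 0.52) with RNA only, although without centring its RNA only value was -0.07.

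Other members lay within 1.5-fold of the median. In the RNA only pair the next lowest were SMARCC2, -0.43 (-0.62 to -0.26), and INO80, -0.39 (-0.57 to -0.24). The 3 highest were CHD3, 0.46 (0.07 to 0.85), SS18, as above, and SMARCA2, 0.31 (-0.20 to 0.78), whose interval included the median. With RNA and DNA the 3 highest were SMARCA2, 0.44 (0.08 to 0.86), SS18 and SMARCB1, 0.25 (0.06 to 0.44). The 3 lowest were CHD4, -0.31 (-0.37 to -0.25), DPF2, -0.29 (-0.55 to -0.05), and INO80C, -0.26 (-0.56 to -0.0042). The median of the 37 members was -0.07 with RNA and DNA, where 16 members had ratios above 0 and 21 below, and -0.14 with RNA only, where 11 had ratios above 0 and 26 below. The split with RNA and DNA depended on the scaling, as given in the last section. Over all genes tested the SD of the relative log2 ratio was 0.25 with RNA and DNA and 0.36 with RNA only.

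Smaller shifts that exceeded counting error were read from the intervals alone. With RNA and DNA the interval was above the median for 6 of 37 members and below it for 17, against 17.7% and 19.7% of all genes. With RNA only it lay above for 4 and below for 16, against 18.8% and 21.4% of all genes. Members are deeper than most genes, with a median level of 103 RPM for those tested against 34.1 RPM for all genes tested, so their intervals are narrower and these shares are not like for like.

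In both pairs the interval was above 0 for SS18 alone (1 of 37, against 3.88% of all genes) and below it for 6 members (against 4.32%). These 6 were SMARCA4, SMARCC1, SMARCC2, CHD4, ARID3B and ARID4B. SMARCA4 was at -0.15 (-0.22 to -0.07) with RNA and DNA and -0.23 (-0.32 to -0.13) with RNA only. SMARCC1 was at -0.19 (-0.24 to -0.13) with RNA and DNA and -0.26 (-0.33 to -0.19) with RNA only. SMARCC2 was at -0.26 (-0.40 to -0.13) with RNA and DNA and -0.43 (-0.62 to -0.26) with RNA only. All 3 are SWI/SNF subunits. Of the 6 core subunits tested, SMARCC1 and SMARCC2 among them, 5 had ratios below 0 with RNA and DNA and 6 with RNA only. Of the 8 variable subunits tested, 3 and 6 had ratios below 0. By construction, all genes tested lie in equal numbers above and below 0. Some subunits differed from these 3. The alternative ATPase SMARCA2 had values above 0 in both pairs, and the core subunit SMARCB1, higher in Post with RNA and DNA, was at -0.07 (-0.30 to 0.14) with RNA only. CHD4, the NuRD ATPase, was at -0.31 (-0.37 to -0.25) with RNA and DNA and -0.19 (-0.27 to -0.12) with RNA only. ARID3B was at -0.13 (-0.25 to -0.02) with RNA and DNA and -0.34 (-0.49 to -0.20) with RNA only. ARID4B was at -0.17 (-0.25 to -0.09) with RNA and DNA and -0.31 (-0.41 to -0.21) with RNA only. Of the span of ARID4B, 15.1% overlaps the gene RBM34 on the same strand, and reads there may have been counted for either. GENCODE also places genes without a symbol on the same strand over 100% of SMARCC2 and 83.9% of CHD4. Whether reads were counted for those genes under another name is not known. These 6 genes were lower in Post under each of the 4 other scalings tried. All 6 differences are below the 1.5-fold limit, and how much such ratios vary between libraries of 1 condition was not measured. For 4 of 37 members, BRD9, CHD1, CHD6 and SMARCA5, the intervals were on opposite sides of the median in the 2 pairs, against 10.2% of all genes.

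**Figure D3:**
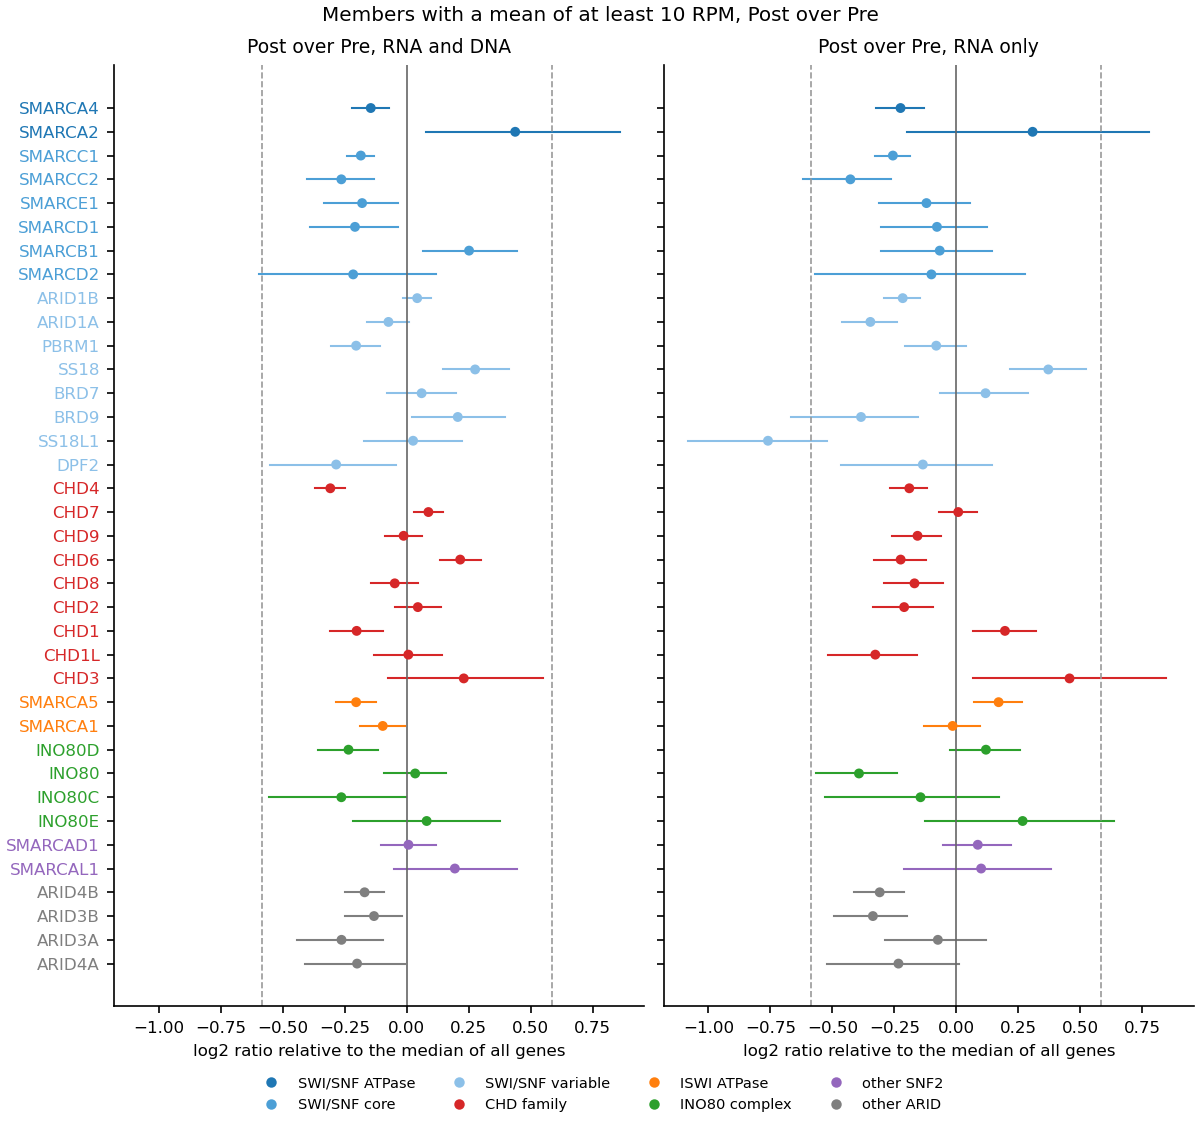
Log2 ratio of Post over Pre relative to the median of all genes, for the 37 members with a mean of at least 10 RPM, with RNA and DNA (left) and with RNA only (right). Bars are 95% counting intervals and dashed lines mark 1.5-fold. SS18L1 in the right panel is the only point past a dashed line, and SMARCA4, SMARCC1 and SMARCC2 lie left of 0 in both panels.

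DNA profiling was compared in the pair of Post libraries and in the pair of Pre libraries. The first pair uses the Post, RNA only library again, so its values are not independent of those above. In Post, 1 of 37 members was called, SS18L1, which was higher with RNA and DNA at 0.62 (0.37 to 0.94), against 1.34% of all genes called higher. Without centring 8 of 37 members would be called higher there, against 22.7% of all genes. None was called lower, against 7.63%. In Pre, 0 of 37 were called, where 0.0605% of all genes were called higher and 0.147% lower. No member was called in both pairs, and 0% of all genes were called higher and 0.0519% lower there.

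In Post the next highest after SS18L1 were BRD9, 0.49 (0.26 to 0.77), and INO80, 0.34 (0.19 to 0.51). The 3 lowest were INO80D, -0.34 (-0.48 to -0.19), CHD1, -0.25 (-0.37 to -0.12), and ARID3A, -0.24 (-0.44 to -0.03). INO80D and the ATPase INO80, which belong to 1 complex, therefore lay on opposite sides of the median in that pair. In Pre the 3 highest were INO80E, 0.25 (-0.05 to 0.58), CHD3, 0.20 (-0.12 to 0.56), and CHD1, 0.16 (0.05 to 0.27). The 3 lowest were SMARCB1, -0.29 (-0.48 to -0.10), SS18L1, -0.16 (-0.35 to 0.03), and CHD6, -0.14 (-0.22 to -0.06). SMARCB1 was the only core SWI/SNF subunit whose interval was clear of the median in Pre.

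The members' median was 0.08 in Post, with 21 members above that of all genes and 16 below, and 0.02 in Pre, with 20 above and 17 below. The Pre libraries were the closest pair, with an SD of the members' ratios of 0.11, against 0.15 for all genes. In the Post pair the SD of the members was 0.21, against 0.37 for all genes. In Post the interval lay above the median for 15 members and below for 5, against 20.7% and 20.4% of all genes. In Pre it lay above for 4 and below for 2, against 7.58% and 6.96%. No member was above in both pairs or below in both, against 0.389% and 0.51% of all genes. The intervals of CHD1, CHD6 and SMARCA5, 3 of 37 members, lay on opposite sides, against 7.86% of all genes.

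**Figure D4:**
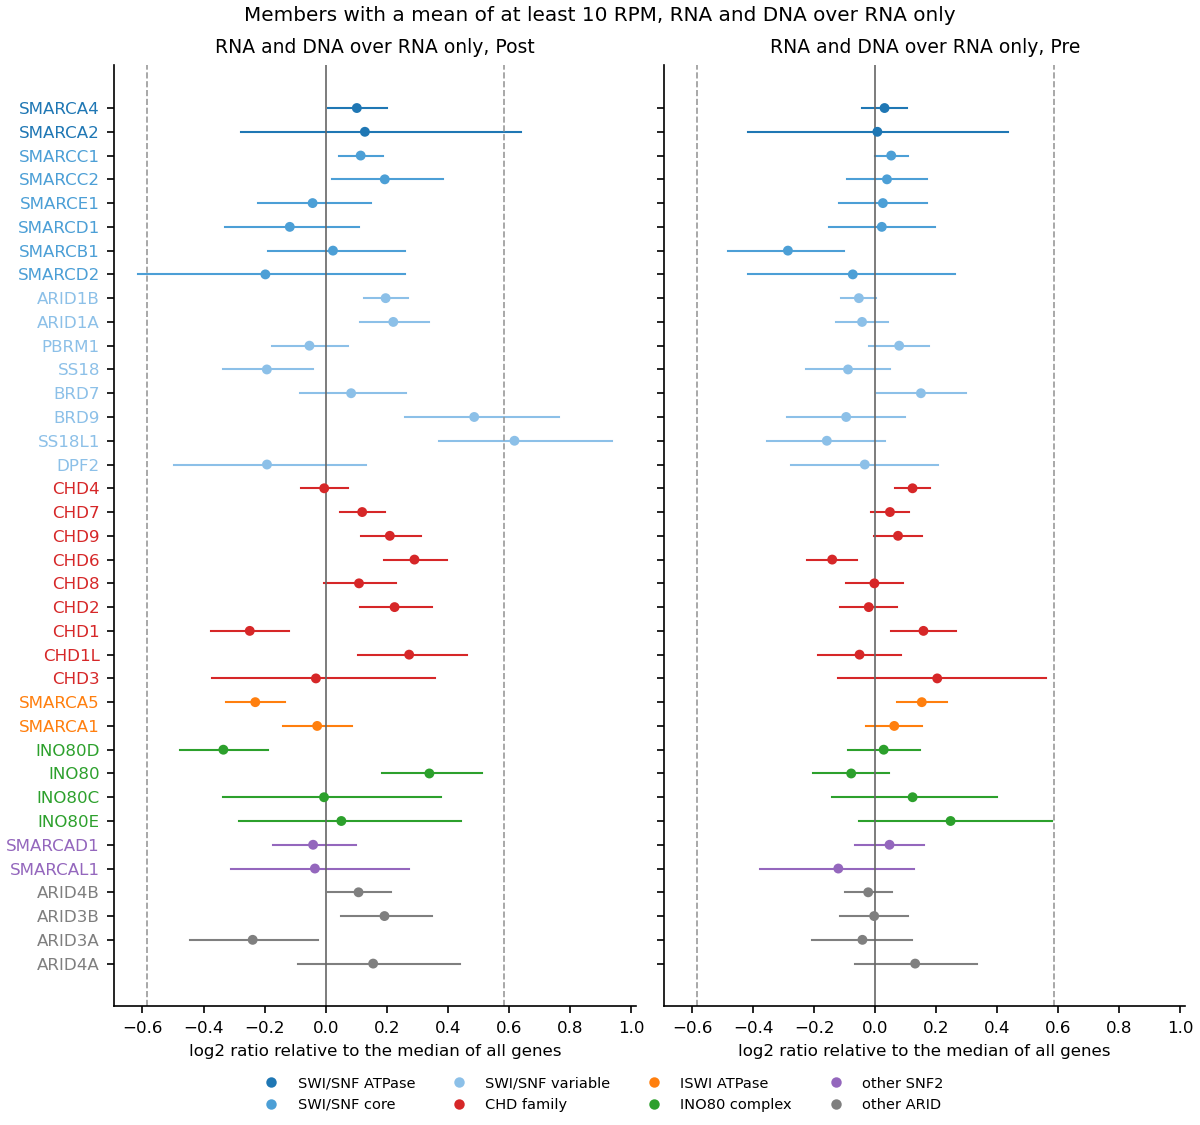
Log2 ratio of RNA and DNA over RNA only relative to the median of all genes, for the same 37 members, in Post (left) and Pre (right). Bars are 95% counting intervals and dashed lines mark 1.5-fold. Points in the right panel lie closer to 0, and SS18L1 in the left panel is the only one past a dashed line.

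Larger genes had more counts among the members. Across the 45 genes the log10 of RPM plus 1, as a mean of the 4 libraries, correlated with the log of gene span at r = 0.53 (Spearman 0.53). With the log of 1 plus the number of runs of at least 12 A on the transcribed strand r was 0.54. With exon GC content r was -0.60. Over the 37 members with a mean of at least 10 RPM these were 0.62, 0.52 and -0.36. Over 9690 protein-coding genes past the same filter they were 0.43, 0.43 and -0.27. With the log of canonical transcript length r was 0.52 over the 45 genes, 0.63 over the 37 and 0.29 over the protein-coding genes. With the log of merged exon length it was 0.52, 0.37 and 0.35, so span was not the only length that went with the level. These are correlations across genes of the same libraries, which are not independent replicates. The members are long genes, with a median span of 70.7 kb and median exons of 9.18 kb, against 50.6 and 6.29 kb for the protein-coding genes tested. SMARCA2, CHD5, DPF3 and ARID5B were low for their spans, at 213, 78.5, 285 and 195 kb, while CHD4 and SMARCA5 were high at 44.4 and 43.8 kb.

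For the ratios between libraries, the correlation with span was closer to 0 over the members than over the protein-coding genes, and whether the lists differ was not tested. The relative log2 ratio of Post over Pre correlated with span at r = 0.26 with RNA and DNA and -0.11 with RNA only over 37 members, and at 0.51 and -0.34 over the protein-coding genes. The sign differed between the pairs in both lists, and the part of span in the members' ratios was not tested.

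**Figure D5:**
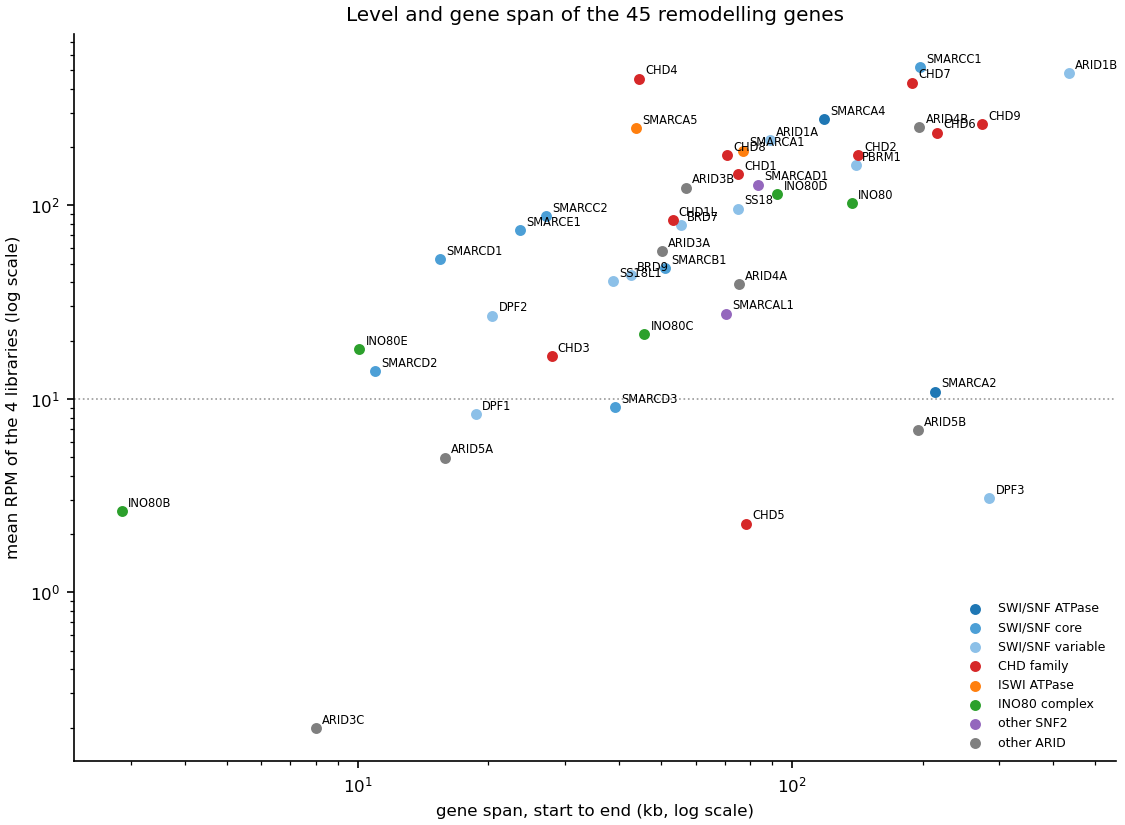
Mean level over the 4 libraries (RPM, log axis) against gene span (kb, log axis) for the 45 genes, coloured by role. The dotted line marks 10 RPM. CHD4 and SMARCA5 lie above genes of like span, and SMARCA2, CHD5, DPF3 and ARID5B below.

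A list of 62 partner symbols that the name rule does not catch was described as well. It held subunits of the same complexes and of SRCAP and TIP60, with 9 other ATPases of the SNF2 type. GLTSCR1 and GLTSCR1L, older symbols of BICRA and BICRAL on the same list, were not in the tables, where 60 symbols were found. Of these partners 57 were tested. Their median relative log2 ratio of Post over Pre was -0.14 with RNA and DNA and -0.09 with RNA only, and their median of RNA and DNA over RNA only was 0.04 in Post and -0.0031 in Pre. With RNA and DNA 0 of 57 partners were called higher in Post and 2 lower, against 1.1% and 2.02% of all genes. With RNA only 2 were called higher and 0 lower, against 5.26% and 2.01%. For RNA and DNA over RNA only, 3 of 57 were called lower in Post, against 7.63% of all genes, and 0 in Pre. The highest value in the RNA only pair was that of ACTB, the actin that is also a BAF subunit, at 0.65, and the lowest that of TFPT, a subunit of INO80, at -0.55. No partner was called in both pairs of either comparison.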

How the data were processed

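The authors deposited, for each gene symbol, whole-number counts of reads mapped to GRCh38 after duplicates were removed. The submitters' processing notes list STAR 2.7.11b, SAMtools, Bowtie2 2.5.3, Bowtie 1.3.1 and Trim Galore 0.6.10. The methods describe these steps for single cells, with duplicates removed by position and molecular identifier, and the gene annotation and strand setting are not given in the sources used here. Another 60 barcode columns, whose condition the labels do not give, were left out.

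Counts were divided by library totals (RPM). Log2 ratios were taken for genes averaging at least 10 RPM, with a pseudocount of 1 RPM, centred on the median of all of them, and called at 1.5-fold with an exact conditional binomial interval clear of 0. Levels have Poisson and shares Clopper-Pearson intervals, all at 95%. Gene positions and lengths come from GENCODE release 44 and matched all 45 members by symbol. Every member could be named. Those of paralogue sets, those called, and the 3 highest and 3 lowest ratios of each comparison were given with values in all libraries, and partners only when extreme or called in both pairs. The members and lists were chosen with earlier results of these data known. With 1 library per condition no p-value is a main result. Additive models of both factors in edgeR 4.0.16 and DESeq2 1.42.0, with 1 residual degree of freedom, served as alternatives, beside other scalings, filters, pseudocounts, folds and thinning. The calling rule and both models were also run on counts simulated from 1 common profile, with changes above the 1.5-fold limit. That run does not show how they perform on these libraries, and its outcome is not reported here. Computations used R 4.3.3 and Python 3.11.15 with scipy 1.17.1, pysam 0.24.0, matplotlib 3.10.9, numpy 2.4.6 and pandas 2.3.3. The DNA libraries were not analysed here.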

Additional observations from a re-analysis of the deposited data

Results flagged for a closer look

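In both pairs of Post over Pre, 4 of 37 members had counting intervals clear of the median but on opposite sides of it, against 10.2% of all genes tested. This count is near the share of all genes and does not set the members apart. Members are also deeper than most genes, so their intervals are narrower. BRD9 was higher in Post with RNA and DNA, 0.21, and lower with RNA only, -0.38, a difference between the pairs of -0.59 (RNA only minus RNA and DNA, log2). CHD6 moved the same way, 0.22 and -0.22, a difference of -0.44. CHD1 was lower in Post with RNA and DNA, -0.20, and higher with RNA only, 0.20, a difference of 0.40. SMARCA5 moved like CHD1, -0.20 and 0.17, a difference of 0.37.

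For RNA and DNA over RNA only, 3 of 37 members, all among these genes, again had opposite signs in Post and in Pre. This too is near the share of all genes, 7.86%. The difference of Post minus Pre was -0.41 for CHD1 (-0.25 and 0.16), 0.43 for CHD6 (0.29 and -0.14) and -0.38 for SMARCA5 (-0.23 and 0.15). These rest on the same 4 libraries as the differences above and are not separate observations. With 1 library per condition the differences were not tested. Each includes the Post, RNA only library, in which the clone genes took 34.8% of counts, and the part of that library in them was not tested. Without centring, CHD1 and SMARCA5 were lower in Post in the RNA only pair too, at -0.24 and -0.27. They were then also higher with RNA and DNA in Post, at 0.13 and 0.15, so that their opposite signs were lost. With TMM, median-of-ratios or clone-free scaling the opposite signs were kept. In the RNA only pair of Post over Pre CHD1 was then at 0.16, 0.21 and 0.18, and SMARCA5 at 0.13, 0.19 and 0.16.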

How the results depend on the processing

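SS18L1 stayed the 1 member called in both comparisons that call it under TMM, median-of-ratios and clone-free scalings, without the interval and after thinning. At 2-fold it was lost, leaving 0 members in each, and with a pseudocount of 5 RPM RNA and DNA over RNA only in Post had 0. Totals that were not centred gave 17 members lower in Post over Pre with RNA only (30.5% of all genes were) and 8 higher with RNA and DNA over RNA only in Post (22.7% of all genes were), and medians of -0.57 and 0.46. A filter at 1 RPM gave 2 of 44 members in the RNA only pair of Post over Pre (ARID5B was higher) and 1 of 44 in the pair that had DNA profiled, against 8.61% and 5.94% of all genes. The summed shares moved to 0.675% and 0.634% in Post and 0.715% and 0.704% in Pre without the clone genes. All other medians were taken under TMM, the 1 RPM filter, a pseudocount of 5 RPM, thinning and without the ARID3, ARID4 and ARID5 genes. They stayed within a range around the main median that was set by the spread of the members' ratios. That range treats genes as separate draws, though they are not replicates, and does not measure the spread between libraries. For Post over Pre with RNA and DNA the split of signs depended on the scaling. It was 16 members above 0 and 21 below in the main setting and with median-of-ratios scaling. Under TMM it was 9 and 28, and without centring 7 and 30. Of 148 ratios of single members, 79 moved beyond their counting interval without centring and 0 with a pseudocount of 5 RPM. Of 108 paralogue shares, 70 moved per kilobase of exons, 98 per kilobase of span and 0 after thinning. In the additive models 0 of 37 members passed an adjusted p of 0.05 for either factor with edgeR, where 1 had an unadjusted p under 0.05 for the order of RT and 0 for DNA profiling, and 0 with DESeq2. Of all 11564 genes, edgeR called 2 for the order of RT and 0 for DNA profiling, and DESeq2 26 and 1. No paired analysis was possible because each condition is 1 library without a replicate number, other than these additive models, in which each factor is a block for the other. Depth limits the 8 members below the filter, among them ARID3C with 1 to 3 counts per library.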
